A study of Mus musculus with 19 samples.

Results

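The mTOR kinase complex and its direct regulators were followed as a set of 10 genes (Mtor, Rptor, Akt1s1, Deptor, Rheb, Tsc1, Tsc2, Ddit4, Sesn1 and Sesn2), chosen by name from the 20408 genes that bulk RNA-Seq measured in suprarenal abdominal aortas (SRAs). The study asked how 24 h of angiotensin II (Ang II) infusion changes the aortic wall of ApoE-deficient mice, and how this depends on IKKβ, the NF-κB kinase encoded by Ikbkb, in vascular smooth muscle cells. All 10 genes passed the filter on low values (10 or more normalized counts in 4 or more mice), as did 14845 genes in all. A normalized count is the number of reads on a gene divided by a size factor for that library.

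The 19 mice were males on a C57BL6 background and fed regular chow, with an age given as 8 weeks. In the study's methods this is the age when tamoxifen was begun, before the pumps were implanted. All 19 mice lacked ApoE, carried the tamoxifen-inducible SMA-CreERT2 transgene and received tamoxifen. IKKβ-/- mice also carried floxed Ikkβ alleles, and IKKβ+/+ mice were littermates without them. Since the SMA promoter drives the Cre, Ikbkb was deleted in smooth muscle cells, and the other cells of the wall kept it. An osmotic pump under the skin delivered saline or Ang II, whose dose the sample labels give as 500 to 1000 ng/min/kg and the study's methods as the upper of these values. This gave 5 saline-infused and 5 Ang II-treated IKKβ+/+ mice and 4 saline-infused and 5 Ang II-treated IKKβ-/- mice.

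mTOR is a serine/threonine kinase that, bound to the scaffold protein raptor (Rptor), forms mTORC1, which promotes protein and lipid synthesis and restrains autophagy. Growth factor signals silence the TSC1-TSC2 complex, which otherwise holds the small GTPase RHEB, the direct activator of mTORC1, in its inactive form. Stress enters through REDD1 (Ddit4) and the sestrins, transcriptionally induced proteins that lower mTORC1 activity. Much of this control acts on protein phosphorylation, localization and binding, which RNA levels do not measure.

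Libraries held between 11382573 and 19906694 reads on genes. Ikbkb lay between 594 and 791 normalized counts in IKKβ+/+ mice (median 691, n = 10) and between 430 and 672 in IKKβ-/- mice (median 549, n = 9), so the ranges overlapped in this whole-tissue RNA. The smooth muscle markers (8 of 8 tested, among them Myh11, Acta2 and Tagln) were abundant in every library, and their summed level ran from 314300 to 650200 normalized counts. The most abundant transcript, mt-Co1, a mitochondrially encoded subunit of cytochrome c oxidase, took 1.82 to 3.91% of the reads in IKKβ+/+ libraries and 2.36 to 11.7% in IKKβ-/- libraries. The numbering of the mice ran group by group without a stated batch, so batch and group cannot be told apart. In bulk RNA, fewer cells of a type and less RNA per cell cannot be told apart.

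All 10 genes were expressed in every mouse. Compared per kb of exon and averaged over the 19 mice, the highest were Sesn1, a sestrin, at 256 normalized counts per kb and Rheb at 250.4. Akt1s1, which encodes PRAS40, an inhibitory subunit of mTORC1, followed at 182. The middle of the range held Deptor, another inhibitory subunit, at 102, Ddit4 at 99.4 and Tsc2 at 78.1. The kinase itself was among the lower transcripts, with Mtor at 70.9 and Rptor at 50.1. The lowest were Tsc1 at 31.6 and Sesn2 at 29.2. Several neighbours in this order were not separated by their spread. Sesn1 lay above Rheb in 11 of 19 mice, Deptor above Ddit4 in 10, Ddit4 above Tsc2 in 11 and Tsc1 above Sesn2 in 13. Tsc2 lay above Mtor in 17 of 19 mice, and the other neighbours kept their order in 19 of 19. The length used is that of all annotated exons of a gene merged, not of the transcripts expressed. It is the same in every mouse, so agreement between mice does not test its effect on the order.

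**Figure D1:**
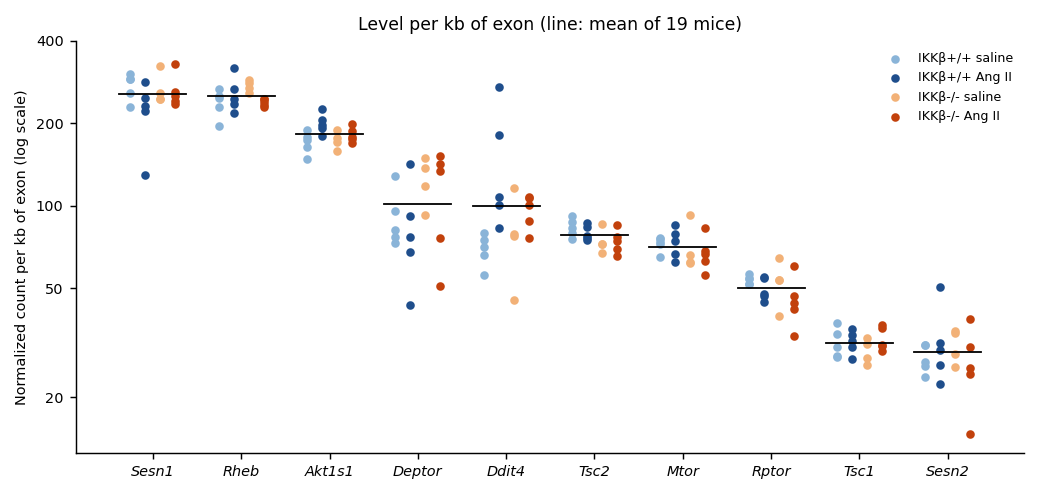
Normalized count per kb of exon (log scale) of the 10 genes, with 1 point per mouse, coloured by group, and a line at the mean of the 19 mice. Sesn1 (256) and Rheb (250.4) head the order, Tsc1 (31.6) and Sesn2 (29.2) close it, and Ddit4 and Deptor have the widest columns of points.

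Ddit4 was the only gene of the 10 that was called, and it was called for Ang II against saline in IKKβ+/+ mice. Ddit4 (ENSMUSG00000020108.4, GRCm38 chromosome 10, 59949669 to 59951834, minus strand) encodes REDD1, which inhibits mTORC1 through the TSC complex and is a known target of the glucocorticoid receptor, HIF1 and ATF4. In saline-infused IKKβ+/+ mice it stood at 140, 132, 116, 123 and 98.0 normalized counts. With Ang II the values were 146, 176, 477, 319 and 189. The groups did not overlap, although the lowest Ang II-treated mouse was only just above the highest saline-infused one, and mice X2356 (477) and X2358 (319), named as in the sample labels, stood well above the other 3. The rise was 1.95-fold (log2 0.96 ± 0.27 SE, 95% confidence interval 1.32- to 2.88-fold, limma adjusted p = 0.0487). Of all genes tested, 8.66% were called in this comparison, with a fold change over 1.2 and an adjusted p below 0.1 (4.33% higher and 4.33% lower), and in 8.42% the groups did not overlap. Among the 10 genes, 1 was called and 1 did not overlap, shares near this background.

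The call depended on single mice. Without mouse X2358 the log2 change of Ddit4 was 0.85 (limma adjusted p = 0.142), and without mouse X2378, the lowest of the saline group, 0.89 (adjusted p = 0.119). Without mouse X2356, the highest, it was 0.71 and still called (adjusted p = 0.0747). Mouse X2356 also had the highest summed level of the 8 neuronal and Schwann cell markers (5 of them tested), 9514 normalized counts against at most 2519 in any other mouse. The part of this in its Ddit4 level was not tested.

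IKKβ-/- mice had Ddit4 at 79.1, 204, 139 and 136 normalized counts with saline and at 188, 154, 189, 133 and 176 with Ang II. These groups overlapped, with the highest single value in a saline-infused mouse. The change was 1.26-fold (log2 0.33, 95% interval -0.27 to 0.93, limma adjusted p = 0.602). The difference between the Ang II effects of the genotypes was -0.63 on the log2 scale (95% interval -1.45 to 0.19, limma adjusted p = 0.545), so an effect of unlike size in the 2 genotypes was not shown. With Ang II alone, IKKβ-/- mice had 0.71 times the Ddit4 level of IKKβ+/+ mice (log2 -0.50, 95% interval -1.07 to 0.06, limma adjusted p = 0.403).

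The promoter of Ddit4 is given because it is the gene that was called, beside that of Sesn2, another stress-induced inhibitor on the minus strand, which was not called. Both are the 250 bases before the RefSeq transcription start in GRCm38.p6, written 5′ to 3′ on the minus strand, with matches to the hypoxia response element core ACGTG in capitals. The Ddit4 stretch is chr10:59951771-59952020 and has 70.0% G and C, and the Sesn2 stretch is chr4:132510457-132510706 and has 63.2%.
Ddit4: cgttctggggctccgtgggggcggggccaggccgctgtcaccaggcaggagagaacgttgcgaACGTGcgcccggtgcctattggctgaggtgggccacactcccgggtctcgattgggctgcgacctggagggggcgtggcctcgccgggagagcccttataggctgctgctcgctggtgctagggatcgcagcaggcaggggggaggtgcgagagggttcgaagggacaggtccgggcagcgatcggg
Sesn2: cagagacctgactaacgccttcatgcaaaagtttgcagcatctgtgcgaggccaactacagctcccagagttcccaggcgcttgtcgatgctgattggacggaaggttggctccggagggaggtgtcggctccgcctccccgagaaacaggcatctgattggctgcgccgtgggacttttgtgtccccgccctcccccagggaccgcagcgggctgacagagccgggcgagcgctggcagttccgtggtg
Ddit4 had 1 ACGTG, 187 bases before the start, and Sesn2 had none. The motifs searched on both strands were the E-box CACGTG, the hypoxia response element core ACGTG (which lies inside the E-box), TGATG as the core of ATF4 composite elements, the cyclic AMP response element TGACGTCA and the glucocorticoid receptor half-site AGAACA. RefSeq promoters matched 9 of the 10 genes, Deptor having no entry and Sesn1 having 2. Rheb held the E-box, 96 bases before its start, and Rptor an ACGTG, 34 bases before its start. TGATG, TGACGTCA and AGAACA occurred in none of these promoters. Over all 32851 promoters of the same length, ACGTG was found in 16.6%, CACGTG in 6.02%, TGATG in 34.5%, TGACGTCA in 1.55% and AGAACA in 16.1%. A match is a stretch of letters and not a measured binding site.

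**Figure D2:**
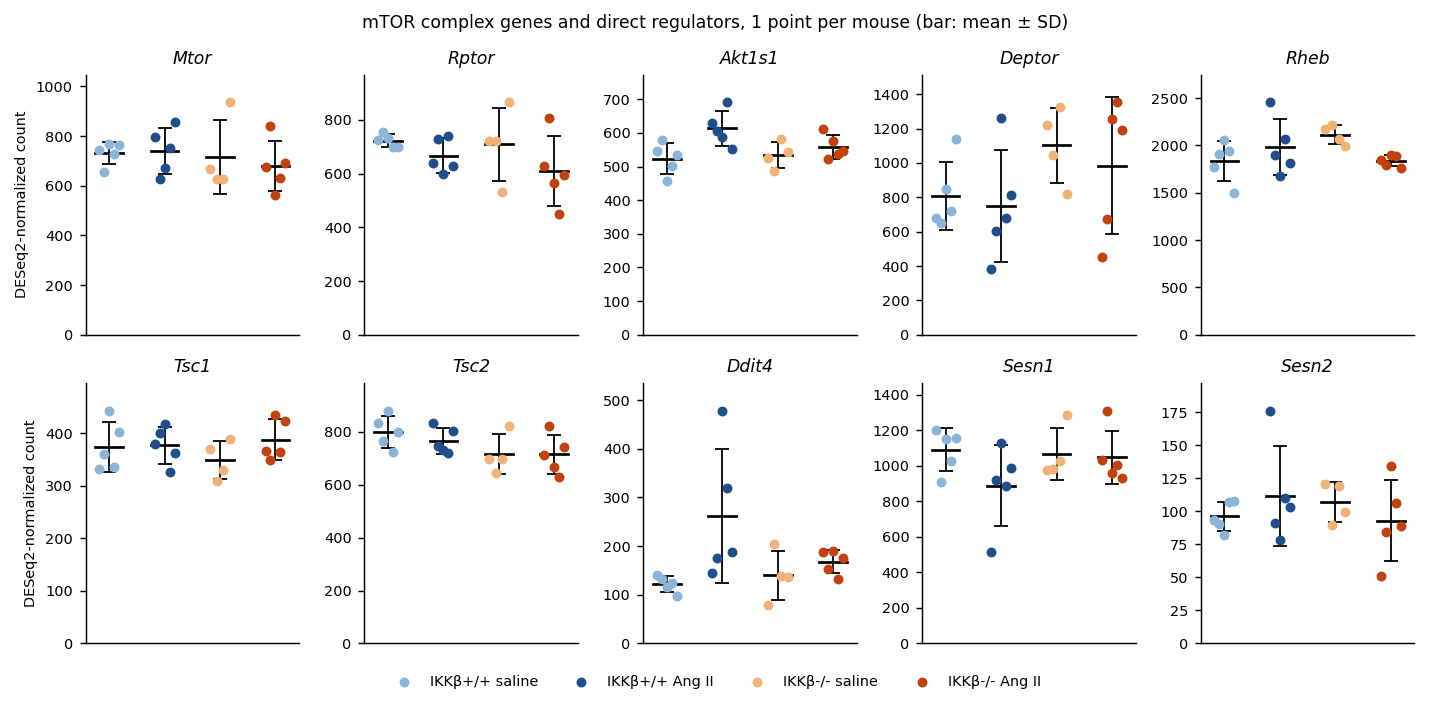
DESeq2-normalized counts of the 10 genes in each of the 4 groups, 1 point per mouse, with black bars at the mean ± SD (n = 5, 5, 4 and 5, axes from 0). Ddit4 shows the IKKβ+/+ Ang II mice (146 to 477) above the saline mice (98.0 to 140), and in the other 9 genes the IKKβ+/+ groups overlap.

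None of the subunits among the 10 genes (Mtor, Rptor, Akt1s1 and Deptor) was called. Mtor (ENSMUSG00000028991.15, chromosome 4, 148448611 to 148557683) was at 655 to 767 normalized counts in saline-infused and 628 to 857 in Ang II-treated IKKβ+/+ mice. In IKKβ-/- mice it was at 625 to 935 with saline and 562 to 840 with Ang II. Its log2 change with Ang II was 0.01 (95% interval -0.25 to 0.27) in IKKβ+/+ and -0.06 (-0.34 to 0.21) in IKKβ-/- mice. All 4 ranges overlapped, and both intervals lay within a 1.5-fold change. Rptor was tightly grouped in saline-infused IKKβ+/+ mice, at 699 to 757 normalized counts, and spread widely in Ang II-treated IKKβ-/- mice, at 451 to 808. Its log2 change with Ang II was -0.12 (limma adjusted p = 0.662) in IKKβ+/+ and -0.22 (limma adjusted p = 0.434) in IKKβ-/- mice.

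Akt1s1 came closest to a second call. It stood at 547, 580, 456, 501 and 535 normalized counts in saline-infused IKKβ+/+ mice and at 630, 606, 589, 691 and 553 in Ang II-treated ones. The Ang II values were mostly higher, with 1 mouse (553) inside the saline range. The fold change was 1.17 (log2 0.23 ± 0.09 SE), which missed both thresholds (limma adjusted p = 0.145). In IKKβ-/- mice it was 1.05 (log2 0.07, limma adjusted p = 0.776).

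Deptor varied most. It was at 679, 649, 847, 722 and 1138 normalized counts in saline-infused and at 385, 601, 1262, 681 and 814 in Ang II-treated IKKβ+/+ mice. The values of IKKβ-/- mice were 1219, 1045, 1324 and 822 with saline and 451, 674, 1257, 1352 and 1189 with Ang II. Each Ang II group spanned mice both below and above most saline mice of its genotype, so the groups overlapped throughout. The log2 change was -0.18 (95% interval -0.80 to 0.43) in IKKβ+/+ and -0.26 (-0.91 to 0.40) in IKKβ-/- mice, intervals that reached beyond a 1.5-fold change. IKKβ-/- mice had 1.37 times the Deptor level of IKKβ+/+ mice with saline (limma adjusted p = 0.439) and 1.31 times with Ang II (adjusted p = 0.564).

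Rheb, the activator, had log2 changes of opposite sign in the genotypes, and neither passed the test. In IKKβ-/- mice it was at 2171, 2214, 2072 and 1993 normalized counts with saline and at 1846, 1793, 1894, 1887 and 1763 with Ang II. All 5 Ang II-treated mice lay below all 4 saline-infused mice, as was so, in either direction, for 5.29% of all genes tested. The log2 change was -0.20 (95% interval -0.42 to 0.02, limma adjusted p = 0.327). In IKKβ+/+ mice the range was 1502 to 2058 with saline and 1681 to 2455 with Ang II, a log2 change of 0.11 (limma adjusted p = 0.590). The difference between these effects was -0.31 (95% interval -0.61 to -0.01), with an unadjusted limma p of 0.0463 and an adjusted p of 0.437. Without mouse X2350, the highest of the Ang II-treated IKKβ+/+ mice, it was -0.23 (limma adjusted p = 0.689).

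The TSC genes were steady. Tsc1 ranged from 310 to 442 and Tsc2 from 631 to 878 normalized counts over the 19 mice. Their log2 changes with Ang II were 0.01 and -0.06 in IKKβ+/+ mice and 0.15 and -0.000986 in IKKβ-/- mice, all with intervals inside a 1.5-fold change.

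The sestrins did not follow Ddit4. Sesn1 was at 1203, 911, 1151, 1025 and 1158 normalized counts in saline-infused and at 515, 919, 1127, 883 and 988 in Ang II-treated IKKβ+/+ mice. A single mouse, X2350, lay far below the rest. The log2 change was -0.34 (95% interval -0.67 to -0.00173, limma adjusted p = 0.243), and without mouse X2350 it was -0.15 (adjusted p = 0.615). Sesn2 was at 81.9 to 108 normalized counts with saline and at 77.9 to 176 with Ang II, the top value again from mouse X2350. Its log2 change was 0.16 in IKKβ+/+ (limma adjusted p = 0.742) and -0.26 in IKKβ-/- mice (adjusted p = 0.627). In mouse X2350 Rheb was the highest and Deptor and Sesn1 the lowest of all 19 mice. The same mouse had the highest summed level of ATF4 target genes (14370 normalized counts, against at most 11540 in the others) and among the lowest of fibroblast markers (77540, the lowest being 63040). The relations of these scores with the genes over all 19 mice are given further on.

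**Figure D3:**
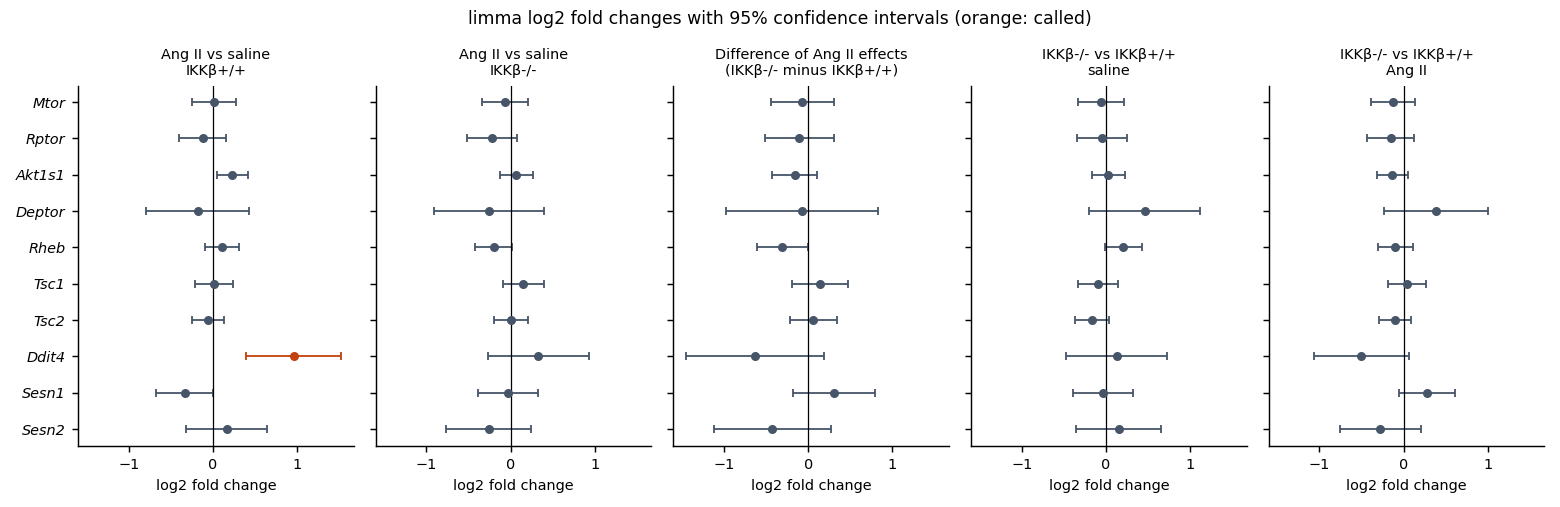
limma log2 fold changes of the 10 genes in the 5 comparisons, as points with 95% confidence intervals, orange where called. Ddit4 in IKKβ+/+ mice (0.96) is the 1 orange point, and the intervals of Ddit4, Deptor and Sesn2 are the widest.

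Across the other comparisons no gene of the 10 was called. For Ang II against saline in IKKβ-/- mice, 5.29% of all genes were called (2.59% higher and 2.69% lower). Between IKKβ-/- and IKKβ+/+ mice, 5.47% were called with saline (3.4% higher and 2.07% lower) and 0.128% with Ang II. For the difference between the Ang II effects, 0.0% of genes were called. Unadjusted limma p-values under 0.05 numbered 3 of 10 for Ang II in IKKβ+/+ mice (Akt1s1, Ddit4 and Sesn1), where 3018 of all 14845 genes had one. For Ang II in IKKβ-/- mice there were 0, where 2636 of all genes had one. The difference gave 1 (Rheb), where 1654 of all genes had one. Each comparison of the genotypes gave 0, where 2857 of all genes had one with saline and 2118 with Ang II. The counts of 3 and 1 are near the shares of all genes in their comparisons. The tools edgeR and DESeq2, run on the recovered reads, called 0 in each of the last 4 of these comparisons. No gene of the 10 had groups that did not overlap between the genotypes, as 8.76% of all genes had with saline and 1.54% with Ang II. The median log2 change of the 10 was 0.01 for Ang II in IKKβ+/+ mice and -0.05 in IKKβ-/- mice, against 0.01 and -0.00294 over all genes tested. The 95% interval lay within a 1.5-fold change for 6 of 10 genes in IKKβ+/+ and 7 of 10 in IKKβ-/- mice, and for 7 and 6 of 10 between the genotypes with saline and with Ang II.

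The genes also differed in how much they varied between mice of a group. The within-group SD on the log2 scale was 0.53 for Deptor, higher than in 96.5% of the genes of like level, and 0.46 for Ddit4, higher than in 86.3%. At the other end, Akt1s1 varied by 0.11, higher than in 3.58% of such genes, Tsc2 by 0.12 (9.05%) and Tsc1 by 0.15 (12.3%).

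To see what moved with each gene, group means were removed from the log2 values of the 19 mice, which leaves the differences between mice treated alike. The genes nearest to Ddit4 were Nit1 (Pearson r = 0.80), Osbpl10 (0.78) and Id1 (0.72), out of 11420 genes. By rank their relation was weaker, with Spearman rho of 0.61, 0.58 and 0.61. The genes nearest to Deptor, looked up after its values had been seen, were Dcn (r = 0.96, Spearman rho = 0.92), Ms4a4d (0.93) and Dab2 (0.92). Dcn encodes decorin, a matrix proteoglycan and one of the 6 fibroblast markers listed. These r values are the highest of many and are given as a description. Among the 10 genes themselves, Mtor and Tsc2 moved most alike (r = 0.79, rho = 0.78, n = 19 mice). Rptor and Tsc2 (r = 0.54, rho = 0.33) and Mtor and Rptor (r = 0.53, rho = 0.30) followed by r. Rheb and Sesn1 moved most in opposition (-0.73, or -0.55 without mouse X2350).

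Each gene was then set against 5 measures of the library: the scores of fibroblast markers, smooth muscle markers, glucocorticoid target genes and ATF4 target genes, and the mt-Co1 share. A score is the mean over a list of each gene's log2 value less its mean over all mice. This made 50 relations over 19 mice, with group means removed and permutation tests of 100000 arrangements within groups. The relations were chosen after their values were seen, so their p-values are given as a description. The fibroblast score includes Dcn, the gene nearest to Deptor. Deptor was higher where the fibroblast score was higher (r = 0.83, permutation p = 0.0011, adjusted 0.0275; rho = 0.72, permutation p = 0.00531, adjusted 0.0469). It was lower where the smooth muscle score was higher (r = -0.80, permutation p = 0.00022, adjusted 0.011; rho = -0.84, permutation p = 0.00014, adjusted 0.007). Of the 50 relations, 10 had an adjusted p of r under 0.1. Without the pair of mice farthest from the median of the score, r was 0.66 and -0.795. Fibroblast markers (6 of 6 tested) summed to 108800 to 154300 normalized counts in saline-infused and 77540 to 135500 in Ang II-treated IKKβ+/+ mice, and to 92810 to 124300 and 63040 to 153000 in IKKβ-/- mice.

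Rptor, Mtor and Tsc2 were lower in libraries with a higher mt-Co1 share. For Rptor r was -0.87 (permutation p = 0.0017, adjusted 0.0283) and rho -0.65 (permutation p = 0.00986, adjusted 0.0704). For Mtor r was -0.75 (permutation p = 0.0037, adjusted 0.0446) and rho -0.69 (permutation p = 0.00289, adjusted 0.0469). For Tsc2 r was -0.73 (permutation p = 0.00446, adjusted 0.0446) and rho -0.69 (permutation p = 0.00563, adjusted 0.0469). Without mice X2385 and X2406, whose shares were 10.3 and 11.7%, r was -0.79, -0.77 and -0.76. The libraries of these mice were also the shallowest (11824041 and 11382573 reads on genes). The part of depth in these relations was not tested. The share differed between the genotypes, so it was also entered in the fit as a covariate, a choice made after seeing the data. The log2 difference of IKKβ-/- from IKKβ+/+ mice with saline then went from -0.05 to 0.33 for Rptor (limma adjusted p = 0.219). It went from -0.05 to 0.24 for Mtor (adjusted p = 0.418), from -0.16 to 0.02 for Tsc2 (adjusted p = 0.964) and from 0.46 to -0.14 for Deptor (adjusted p = 0.907). With Ang II the difference went from -0.15 to 0.09 for Rptor and from -0.13 to 0.06 for Mtor. For Tsc2 it went from -0.10 to 0.01 and for Deptor from 0.38 to 0.00485. None was called either way, and Ddit4 remained called in IKKβ+/+ mice (log2 0.92, limma adjusted p = 0.058).

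The same 3 genes were higher where the smooth muscle score was higher. For Rptor r was 0.65 (permutation p = 0.0159, adjusted 0.0882) and rho 0.72 (permutation p = 0.0032, adjusted 0.0469). For Mtor r was 0.62 (permutation p = 0.0157, adjusted 0.0882) and rho 0.59 (permutation p = 0.0196, adjusted 0.109). For Tsc2 r was 0.62 (permutation p = 0.0183, adjusted 0.0916) and rho 0.63 (permutation p = 0.0141, adjusted 0.0882). Without the pair of mice farthest from the median of the score, r was 0.75, 0.64 and 0.67. Deptor was higher where the mt-Co1 share was higher (r = 0.56, permutation p = 0.0152, adjusted 0.0882; rho = 0.68, permutation p = 0.00449, adjusted 0.0469), with r = 0.50 without mice X2385 and X2406. Rheb was higher where the ATF4 score was higher (r = 0.67, permutation p = 0.00997, adjusted 0.0831; rho = 0.49, permutation p = 0.0401, adjusted 0.154), with r = 0.49 without mice X2350 and X2406.

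No relation of Ddit4 with these 5 measures had an adjusted p under 0.1. Its r was -0.00385 with the glucocorticoid score (permutation p = 0.988, adjusted 0.998; rho = -0.06, permutation p = 0.816, adjusted 0.907) and -0.20 with the ATF4 score (permutation p = 0.625, adjusted 0.878; rho = 0.11, permutation p = 0.708, adjusted 0.880).

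**Figure D4:**
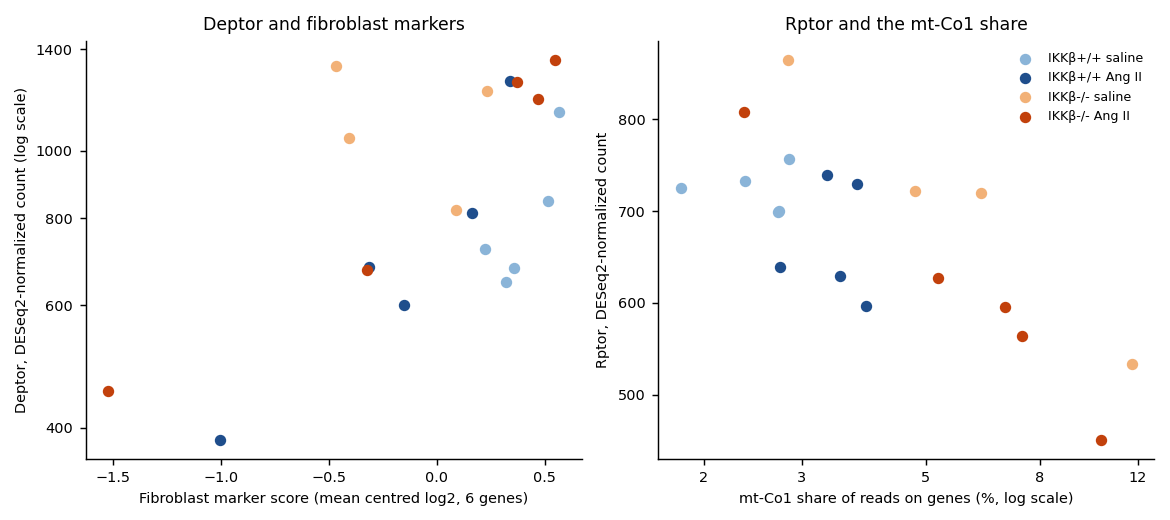
Left, Deptor (normalized count, log scale) against the fibroblast marker score, and right, Rptor (normalized count) against the mt-Co1 share of reads (%, log scale), with 1 point per mouse coloured by group. Deptor is lowest (385 and 451) in the mice of lowest score, and Rptor is lowest (451 and 533) in the libraries of highest share (10.3 and 11.7%).

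The rest of the pathway was read from lists of its genes, against 4.33% of all genes called higher and 4.33% lower in IKKβ+/+ mice. With Ang II in IKKβ-/- mice the shares were 2.59% higher and 2.69% lower. Between IKKβ-/- and IKKβ+/+ mice with saline they were 3.4% higher and 2.07% lower. Counts of 1 or 2 in a list are near these shares. The other subunits and assembly factors of mTORC1 and mTORC2 gave 1 of 8 called, Mlst8, a subunit of both complexes, which rose in IKKβ+/+ mice (log2 0.40, limma adjusted p = 0.0713). The lysosomal amino acid branch gave 1 of 27 called higher in IKKβ+/+ mice, Sec13 of GATOR2 (log2 0.38, adjusted p = 0.0640), and 3 higher in IKKβ-/- than in IKKβ+/+ mice with saline, the Ragulator subunits Lamtor4 (0.57) and Lamtor5 (0.37) and the KICSTOR subunit Kptn (0.59). Of 23 genes of growth factor and energy input, 2 fell in IKKβ+/+ mice, the insulin receptor substrate Irs1 (-0.48) and the PI3-kinase subunit Pik3r1 (-0.51). Another 2 fell in IKKβ-/- mice, the substrate Irs2 (-1.56, limma adjusted p = 0.0254) and the kinase Gsk3b (-0.34), and Irs2 was higher in IKKβ-/- than in IKKβ+/+ mice with saline (limma adjusted p = 0.0512). Of 5 paralogues and partners of the 10 genes, 1 was called, the sestrin Sesn3, which fell in IKKβ+/+ mice (-0.45, adjusted p = 0.0922). The log2 change of Sesn3 in IKKβ-/- mice was close to this, at -0.42, and was not called (limma adjusted p = 0.172). Of 21 tested substrates and effectors of mTORC1, 1 rose in both genotypes, Eif4ebp1, a translational repressor that mTORC1 phosphorylates (log2 0.41, adjusted p = 0.0953 in IKKβ+/+ and 0.63, adjusted p = 0.0265 in IKKβ-/- mice), and its relative Eif4ebp2 was lower in IKKβ-/- mice with saline (-0.52). The median log2 changes of these lists in IKKβ+/+ mice lay between -0.45 for the 5 paralogues and partners and 0.06, against 0.01 over all genes.

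Lists of genes for the regulators known to induce Ddit4 and the sestrins were read in the same way. Glucocorticoid target genes gave 7 of 12 higher in Ang II-treated IKKβ+/+ mice (median log2 1.05), among them the metallothionein Mt2 (2.82), Cebpd (1.165) and Errfi1 (1.80). In IKKβ-/- mice 1 was higher (Mt2, 1.84) and 1 lower (Per1, -1.43), with a median of 0.06. With saline, 3 of 12 were already higher in IKKβ-/- than in IKKβ+/+ mice (Klf9, Per1 and Cebpd). ATF4 target genes gave 7 of 14 higher in IKKβ+/+ mice (median log2 0.45) and 3 of 14 in IKKβ-/- mice (median 0.27), the amino acid synthesis genes Asns (1.42 and 2.30), Psat1 (1.11 and 0.88) and Mthfd2 (1.36 and 1.05) being called in both. p53 target genes gave 1 of 11 higher in IKKβ+/+ mice (Cdkn1a, 1.02) and 1 lower in IKKβ-/- mice (Btg2, -2.13), and hypoxia target genes 1 of 12 higher in IKKβ+/+ mice (Higd1a, 0.48). For the difference between the genotypes' Ang II effects, none of these genes was called. Clock genes differed between the groups as well. With saline, 9 of 15 were higher and 3 lower in IKKβ-/- than in IKKβ+/+ mice, against 3.4 and 2.07% of all genes. In Ang II-treated against saline-infused IKKβ-/- mice, 3 clock genes were higher and 8 lower, against 2.59 and 2.69% of all genes. Their part in the levels of the 10 genes was not tested.

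**Figure D5:**
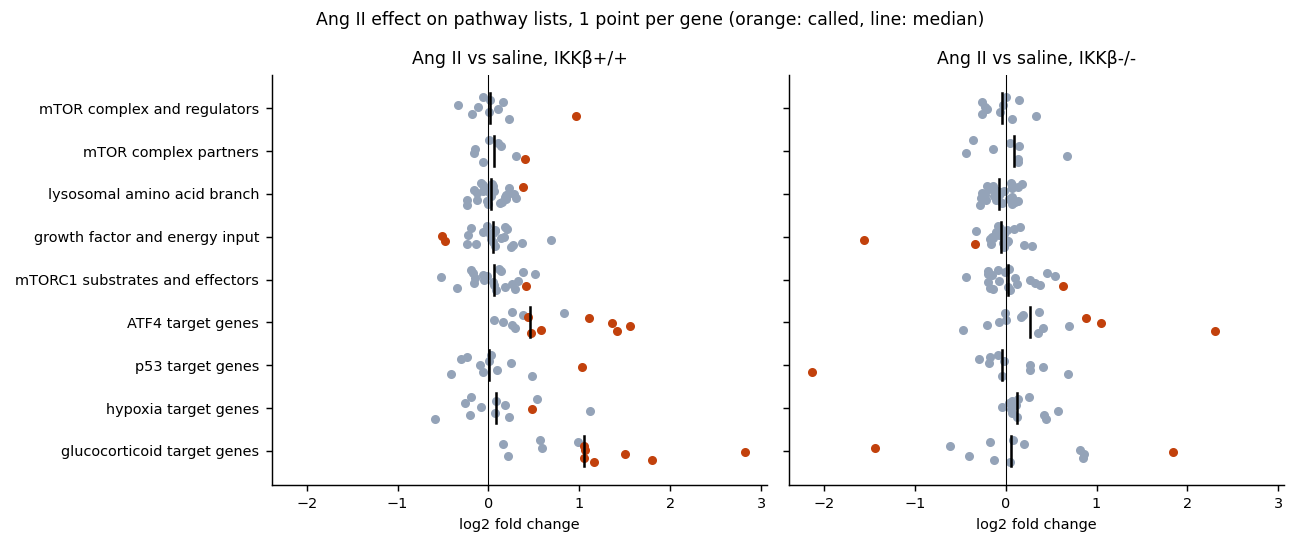
limma log2 fold changes with Ang II in IKKβ+/+ (left) and IKKβ-/- mice (right), with 1 point per gene, 1 row per list, orange where called and a black line at the median. In IKKβ+/+ mice the median is 0.01 for the mTOR complex and regulators, 0.45 for ATF4 target genes and 1.05 for glucocorticoid target genes.

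Some cell type markers were called as well, against 8.66% of all genes in IKKβ+/+ and 5.29% in IKKβ-/- mice with Ang II. Between the genotypes with saline the share was 5.47%. In lists this short, a single called gene is near that background. In Ang II-treated IKKβ+/+ mice 2 of 8 smooth muscle markers (Cnn1 and Tagln), 1 of 5 neuronal and Schwann cell markers (Uchl1) and 1 of 4 skeletal muscle markers (Ckm) were higher, and 2 of 7 endothelial markers (Tek and Cldn5) and 1 of 6 fibroblast markers (Lum) lower. In Ang II-treated IKKβ-/- mice 4 of 6 tested adipocyte markers and 1 of 7 endothelial markers (Kdr) were higher. Kdr was the only 1 of these 7 with a log2 change above 0 in IKKβ-/- mice, and the median of the 7 was -0.36. All 7 listed adipocyte markers, tested or not, summed to 740.5 to 10410 normalized counts in these mice against 128 to 687 with saline. In IKKβ+/+ mice this sum was 202.5 to 2868 with saline and 475.8 to 2112 with Ang II. With saline, 2 of 7 macrophage markers (Cd68 and Adgre1) were lower in IKKβ-/- mice, and of the 2 lymphocyte markers tested none was called. Beyond the relations with the fibroblast and smooth muscle scores, the part of these cell types in the levels of the 10 genes was not tested.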

How the data were processed

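Poly(A) RNA of the SRA was sequenced as single reads from stranded KAPA libraries of 19 mice. Per the labels and the methods of the study, the authors used Trimmomatic 0.35 for trimming, STAR 2.7.1a for alignment to GRCm38 and for counts per Gencode gene, and DESeq2 1.30.1 for normalization. RSEM is also named in the submitters' processing notes. The deposited signal values are these normalized counts, from which whole reads were recovered (100% of values within 0.01 of a whole read). Depth (11382573 to 19906694 reads) limits the precision of genes with few reads.

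Genes that reached 10 normalized counts in 4 or more mice were tested (14845, leaving out 5563), as log2(value + 1), which pulls the fold change of low genes toward 0. limma 3.58.1 (lmFit, eBayes with trend, R 4.3.3) was fitted to 4 group means, two-sided, with Benjamini-Hochberg adjustment over all genes tested. Calls needed a fold change over 1.2 and an adjusted p below 0.1. Promoters came from RefSeq (GRCm38.p6) and exon lengths from a Gencode annotation of GRCm38, as merged exons.

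The genes, lists and tests were chosen with earlier results of these data known. All 10 genes are named, and of each list those called, at most 6 by p in each list, with the 3 genes nearest to each called gene in its residual pattern. Naming the genes nearest to Deptor and the 50 relations were chosen after their values were seen. The fit was tested on simulated data. Alternatives were a pseudocount of 4, no filter, only the groups compared, array weights, TMM, edgeR 4.0.16 and DESeq2 1.42.0 on recovered reads, stricter thresholds and each mouse left out. The mt-Co1 share as a covariate and leaving out mice X2385 and X2406 were added after seeing the data. Protein phosphorylation was not analysed here.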

Additional observations from a re-analysis of the deposited data

Results flagged for a closer look

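In 3 of the 40 groups of 4 or 5 mice (10 genes in 4 groups), a single mouse stood apart from the others by Dixon's criterion, and chance flags about 1 in 20 groups. Mtor was at 935.4 normalized counts in mouse X2409, a saline-infused IKKβ-/- mouse, with the next mouse at 668. The same mouse had the highest Sesn1 of its group, 1284 against 1025. Sesn1 was also high in mouse X2383, an Ang II-treated IKKβ-/- mouse, at 1306 against 1031. Mice X2409 and X2383 had the lowest mt-Co1 shares of their groups, 2.83 and 2.36%. They also had the deepest libraries of their groups, at 19539387 and 16739076 reads on genes, and the part of depth was not tested. Over the 19 mice, with group means removed, Mtor was lower where this share was higher (r = -0.75, permutation p = 0.0037, adjusted 0.0446), and for Sesn1 r was -0.27 (permutation p = 0.16, adjusted 0.472).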

How the results depend on the processing

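The count of called genes among the 10 was 1 for Ang II against saline in IKKβ+/+ mice and ranged from 0 to 1 when each mouse was left out, being 0 without mouse X2358 or mouse X2378. It stayed at 0 in the other comparisons under every alternative run. The log2 change of Ddit4 in IKKβ+/+ mice ran from 0.71 to 1.13 over 28 alternatives, with limma, edgeR or DESeq2 adjusted p-values from 0.00377 to 0.142. Of 1390 values of single genes under an alternative, 1374 counted as unchanged, staying on their side of the threshold. Uncalled values also had to lie within the standard error of the reported change, and called values had no such limit. Another 14, all uncalled, moved by more than that standard error, and 2 lost the call. Where a comparison holds 2 groups, leaving out a mouse of another group could not move the log2 change, only its p-value. Such values are among the 1374. None of the called values changed sign, while 23 of the 50 pairs of a gene and a comparison held an uncalled value that did. TMM scaling shifted the median of all genes by at most 0.03 on the log2 scale. No paired analysis was possible because the groups compared share no mouse numbers. With 4 or 5 mice a group, the 95% intervals of Deptor, Ddit4 and Sesn2 with Ang II reached beyond a 1.5-fold change in both genotypes.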
